A study of Mus musculus with 3 samples.

Results

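Guidance cue ligands and receptors are the cell-surface and secreted proteins first known for steering axons: ephrins and their Eph receptors, semaphorins with plexins and neuropilins, Slits with Robos, and netrins with Unc5 receptors. The genes were chosen by symbol and gene type, which gave 68 genes out of 21856 protein-coding genes and 35562 genes of all types. They comprised 14 Eph receptors, 8 ephrins, 20 semaphorins, 9 plexins, 2 neuropilins, 3 Slits, 4 Robos, 4 netrins and 4 Unc5 receptors, or 35 ligands and 33 receptors. RNA from 3 myoblast lines, numbered 66, 67 and 72, was sequenced after poly-A enrichment, and all 3 lines were of 1 kind, edited Dmdmdx; Pax7-nGFP myoblasts. Each line carried the mdx mutation of dystrophin, corrected by CRISPR/Cas9, together with a nuclear GFP reporter driven by Pax7. The cells descended from gene-edited induced pluripotent stem cells that had been injected into mouse blastocysts bearing Pax7-Cre/ERT2 and Rosa26-lsl-DTA alleles. Satellite cells, the stem cells of muscle, were sorted from the chimeras and grown as myoblasts, and the labels give neither the age of the chimeras, nor whether the 3 lines came from different chimeras, nor which came from a tamoxifen-injected animal. Unedited myoblasts, embryonic fibroblasts and myoblasts of Pax7-nGFP mice were not analysed here. With a single group no condition could be compared, so the levels are described over the 3 lines, no p-value is given, and the SD measures the spread between these lines, which may come from 1 animal or several and may be technical in part.

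An Eph receptor and its ephrin both sit in membranes, so that touching cells signal through the pair in both directions. Secreted class 3 semaphorins mostly bind a neuropilin held together with a plexin, whereas the membrane-bound semaphorins bind plexins directly, and Slits and netrins are secreted proteins of the extracellular matrix read by Robos and by Unc5 receptors, Dcc or neogenin. In muscle, these cues are known for placing migrating precursor cells in the embryo, for satellite cell movement along fibres and for bringing motor axons to regenerating fibres.

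The level of a gene is given in transcripts per 1000000 (TPM), summed over its transcripts, which takes transcript length into account and can be compared between genes. Libraries held 73274315, 66972426 and 70272367 estimated counts in lines 66, 67 and 72. All 10 myoblast markers examined were at 1 TPM or more in every line, with summed levels between 2923 and 2996 TPM, and these included Pax7, Myf5, Myod1 and Des. Within that sum Myog, which marks the onset of differentiation, had 168, 222 and 310.4 TPM in lines 66, 67 and 72, and Myod1 had 791, 702 and 579 TPM. Their part in the differences between lines below was not tested. Among markers of other cells, 1 of 10 endothelial, 2 of 8 fibroblast, 1 of 6 immune and 2 of 8 neural or glial genes reached that level in every line. Their summed levels were 8.06 to 10.5 TPM for the endothelial, 12.2 to 41.0 TPM for the fibroblast, 3.04 to 4.33 TPM for the immune and 4.23 to 10.8 TPM for the neural and glial list. Lum and Dpt of fibroblasts and Adgre1 and C1qa of macrophages had 0 counts in all 3 lines, while Cd68 of the immune list had 3.90, 2.92 and 4.23 TPM and Csf1r 5 to 8 counts. The endothelial markers Erg and Emcn had at most 2 counts in any line, whereas Egfl7 had 6.78, 9.27 and 6.14 TPM, Vwf 91.2 to 179 counts and Tek 54 to 175 counts. Col1a2 of the fibroblast list had 7.47, 28.3 and 37.0 TPM. The part of such cells in the levels below was not tested, and in bulk RNA fewer cells of a type and less RNA per cell cannot be told apart.

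The sequences bear on how much of the leading gene's level can be read as messenger RNA for the protein. Sema3e, on chromosome 5, had its level divided between the protein-coding transcript Sema3e-201 and Sema3e-202, which the annotation lists as an intron-retaining transcript. The retained stretch is the 720-base intron between exons 7 and 8 of Sema3e-201, at chr5:14225696-14226415 on the plus strand of GRCm38. Each line below shows 30 bases on either side of a boundary as the GENCODE transcripts hold them, with intron bases in capitals.
Sema3e-201 exon-exon junction: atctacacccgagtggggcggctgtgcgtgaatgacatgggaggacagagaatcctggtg
Sema3e-202 start of kept intron: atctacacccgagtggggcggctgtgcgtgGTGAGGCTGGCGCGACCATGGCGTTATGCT
Sema3e-202 end of kept intron: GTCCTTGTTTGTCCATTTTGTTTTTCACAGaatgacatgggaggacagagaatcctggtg
Removing the capitals joins the outer stretches into the first line. Sema3e-202 also ends 2375 bases before Sema3e-201, so reads from the last exon can separate the transcripts as well as reads from the intron.

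Stretches before the start of transcription are shown for a pair of members at high level and a pair at or near 0, because windows rich and poor in CG dinucleotides occurred at either level. The 250 bases upstream of the start listed first by RefSeq (build GRCm38.p6) were available for 59 of the 68 members and were missing for Efnb3, Ntn1, Plxna1, Plxna4, Sema3b, Sema3f, Sema6a, Slit1 and Unc5d. Capitals mark CG dinucleotides, and each window is written 5′ to 3′ in the direction of the gene.
Efnb2, 78.8 TPM, chr8:8661243-8661492, minus strand: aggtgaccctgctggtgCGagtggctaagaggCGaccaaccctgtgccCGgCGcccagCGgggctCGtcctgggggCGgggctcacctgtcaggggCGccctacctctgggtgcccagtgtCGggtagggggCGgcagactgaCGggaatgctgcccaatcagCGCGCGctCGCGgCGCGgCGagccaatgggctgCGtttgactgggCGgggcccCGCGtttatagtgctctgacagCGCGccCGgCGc
Sema3e, 179 TPM, chr5:14025026-14025275, plus strand: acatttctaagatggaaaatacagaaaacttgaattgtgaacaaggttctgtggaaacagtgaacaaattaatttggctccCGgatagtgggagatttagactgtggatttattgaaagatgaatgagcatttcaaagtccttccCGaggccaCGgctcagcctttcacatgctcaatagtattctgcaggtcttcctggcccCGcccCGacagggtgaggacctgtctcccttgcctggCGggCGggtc
Epha8, at most 1 count in a line, chr4:136956817-136957066, minus strand: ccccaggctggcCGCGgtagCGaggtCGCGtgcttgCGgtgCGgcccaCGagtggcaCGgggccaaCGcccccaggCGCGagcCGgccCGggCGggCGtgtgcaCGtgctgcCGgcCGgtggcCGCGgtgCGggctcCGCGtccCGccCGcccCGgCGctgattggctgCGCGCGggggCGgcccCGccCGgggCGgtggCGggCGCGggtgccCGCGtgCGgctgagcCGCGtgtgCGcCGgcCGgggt
Ntn5, at most 1 count in a line, chr7:45683772-45684021, plus strand: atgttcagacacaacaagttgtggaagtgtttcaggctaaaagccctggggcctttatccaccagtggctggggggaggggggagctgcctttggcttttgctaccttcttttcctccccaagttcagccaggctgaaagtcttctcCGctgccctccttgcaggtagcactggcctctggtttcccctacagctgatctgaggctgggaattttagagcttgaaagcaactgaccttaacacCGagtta
The Efnb2 window held 27 CG dinucleotides and the Sema3e window 7. At Epha8, which was all but silent, the window held 46, and at Ntn5 it held 2. Over the 16 members with a window and a mean below 1 TPM, the median was 13 CG dinucleotides, against a median of 3 over 7235 other protein-coding genes below that level. The 23 members with a mean of at least 10 TPM had a median of 15, and 6653 other protein-coding genes at that level had a median of 17. Between these levels the median was 20 over 20 members and 14 over 2570 other genes.

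Of the 68 members, 43 (63.2%) were at 1 TPM or more in every line, where 51.9% of all protein-coding genes were. A mean of at least 10 TPM was reached by 26 members (38.2%), close to the 38.0% of protein-coding genes that reached it. The median member had 4.14, 4.65 and 4.31 TPM in lines 66, 67 and 72, and the median protein-coding gene had 2.07, 1.89 and 2.12 TPM. On the log2(TPM + 1) scale, the median level was 2.42 ± 0.07 (SD, n = 3) for the members and 1.60 ± 0.06 for all protein-coding genes, and the 2 sets of line values did not overlap. In all, 21 members stayed below 1 TPM in every line, and 4 (Efna3, Plxnc1, Slit2 and Robo2) crossed that level between lines. The summed level of the 35 ligands was 670 ± 27.7 TPM (SD, n = 3) and that of the 33 receptors 657 ± 21.7 TPM. Their values overlapped between lines, since the receptors' sum was above the ligands' in line 67 and below it in lines 66 and 72.

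**Figure D1:**
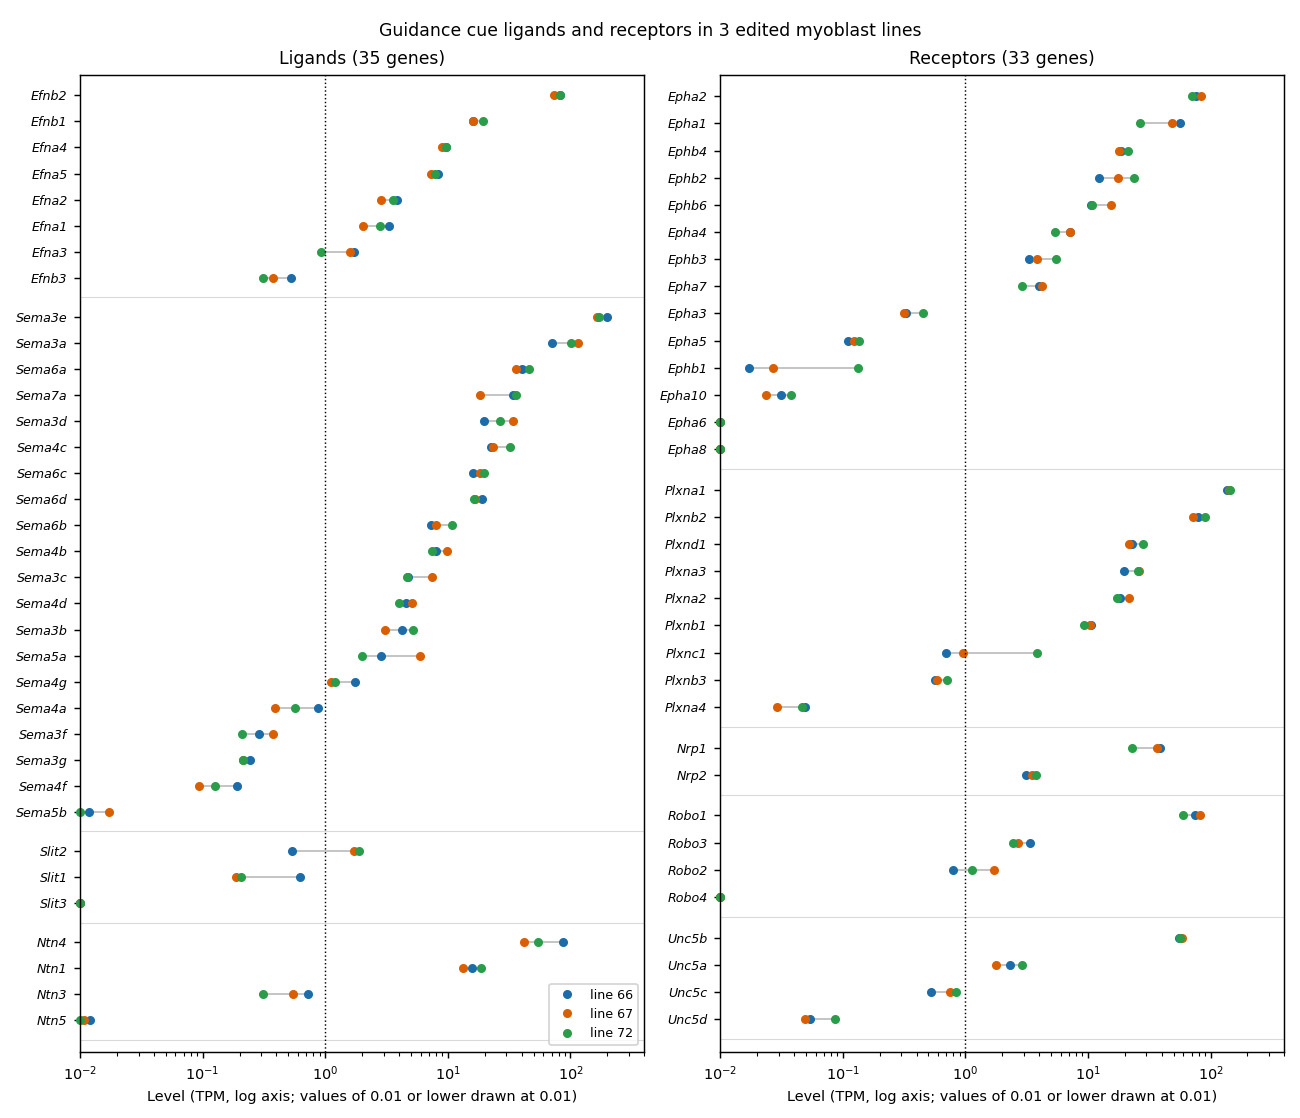
Level of each ligand (left) and receptor (right) in TPM on a log axis, with 1 point for each of the 3 lines and a grey bar from the lowest to the highest. Genes are ordered within families by mean level, and the dotted line marks 1 TPM, which 43 of the 68 genes reached in every line.

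Semaphorins were the family with the highest summed level, at 470 ± 14.4 TPM (SD, n = 3), and 15 of 20 were at 1 TPM or more in every line. Class 3, the secreted semaphorins, made up 311 ± 13.1 TPM of that sum. Sema3e, a secreted ligand that can bind plexin D1 without a neuropilin, had the highest level of all 68 members at 199.6, 165.7 and 172.3 TPM in lines 66, 67 and 72 (179 ± 18.0 TPM) when all transcripts were summed, but with coding transcripts only it had 92.8 ± 5.23 TPM and its range overlapped that of Sema3a. Over all transcripts, 96.1% of the protein-coding genes had a lower mean than Sema3e. Sema3a, the axon repellent that satellite cells are known to secrete in injured muscle, had 70.1, 114 and 100.3 TPM (94.9 ± 22.6 TPM). Line 66 was the lowest line for Sema3a and the highest for Sema3e, and over all transcripts Sema3e was above Sema3a in all 3 lines.

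Sema3d, another secreted class 3 ligand, had 19.8, 34.2 and 26.6 TPM (26.9 ± 7.20 TPM), with line 67 the highest. Sema3c had 4.77, 7.36 and 4.66 TPM and was also highest in line 67. Sema3a, Sema3c, Sema3d and Sema3e all lie on chromosome 5 (Sema3a at chr5:13125414-13602565 and Sema3e at chr5:14025276-14256689, GRCm38), and 3 of these 4 were highest in line 67, the highest line for 15 of the 47 members averaging 1 TPM or more. The other chromosome 5 members at that level, Ephb4 and Slit2, were highest in line 72. Sema3b had a mean of 4.17 ± 1.08 TPM. Sema3f and Sema3g, ligands that prefer the other neuropilin, Nrp2, were low, with mean levels of 0.291 ± 0.0829 and 0.224 ± 0.0162 TPM.

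All 4 class 6 semaphorins, which span the membrane and bind class A plexins, were at 1 TPM or more in every line, with a sum of 84.5 ± 7.06 TPM. Sema6a had 40.6, 35.6 and 45.7 TPM, Sema6c 15.9, 18.2 and 19.7 TPM, and Sema6d 18.8, 16.8 and 16.2 TPM. The ranges of Sema6c and Sema6d overlapped, while Sema6a was above both in every line. Sema6b had a mean of 8.67 ± 1.83 TPM. With coding transcripts only, Sema6c had 4.32, 5.61 and 5.47 TPM and lay below Sema6d and Sema6b in every line. Sema4c, a transmembrane ligand of plexin B2 that is known to rise when myoblasts differentiate, had 22.6, 23.4 and 32.0 TPM (26.0 ± 5.24 TPM). It was the highest of the class 4 semaphorins, whose 6 genes summed to 41.1 ± 3.81 TPM. Sema4b, Sema4d, the ligand of plexin B1, and Sema4g had means of 8.44 ± 1.29, 4.51 ± 0.543 and 1.35 ± 0.348 TPM, and Sema4a and Sema4f were below 1 TPM in every line. With coding transcripts only, Sema4g was also below 1 TPM in every line.

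Sema7a, the only semaphorin anchored by a lipid tail, had 34.0, 18.4 and 35.9 TPM (29.4 ± 9.62 TPM). Line 67 stood below the other two. The ranges of Sema6a and Sema7a overlapped, although Sema6a was the higher in each line. Class 5 was low, with Sema5a at a mean of 3.61 ± 2.10 TPM and Sema5b at 1 to 4 counts in a line.

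The plexins, which pass the semaphorin signal into the cell, summed to 301 ± 16.3 TPM, and 6 of 9 were at 1 TPM or more in every line. Plxna1, a co-receptor of the class 3 and receptor of class 6 semaphorins, led with 136.9, 141.6 and 144.9 TPM (141 ± 4.02 TPM). The lines differed by 1.06-fold for this gene, and Plxna1 was 6.02 ± 0.794 times Plxna3 on the TPM scale. Plxnb2, the receptor of Sema4c, had 78.9, 71.3 and 89.4 TPM (79.9 ± 9.09 TPM). Sema4c stood at 0.324 ± 0.0361 of the Plxnb2 level. With coding transcripts only, Plxna1 had 83.3 ± 5.22 TPM and its range overlapped that of Plxnb2.

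Plxnd1, the receptor of Sema3e, had 22.9, 21.5 and 28.1 TPM, so that the ligand was 8.70, 7.69 and 6.13 times its receptor in lines 66, 67 and 72. With coding transcripts only the ratio was 12.5, 13.2 and 8.79. Plxna3 had 19.7, 25.9 and 25.5 TPM, and Plxna2 18.1, 21.7 and 17.3 TPM. Plxnd1 and Plxna3 overlapped in their ranges, as did Plxna3 and Plxna2. With coding transcripts only the 3 ranges lay apart, with Plxna2 at 18.3 ± 2.19, Plxna3 at 11.8 ± 0.761 and Plxnd1 at 8.28 ± 1.49 TPM. Plxnb1 had 10.7, 10.4 and 9.26 TPM, while Plxnb3 was below 1 TPM in every line and Plxna4, a plexin of sensory and sympathetic neurons, had a mean of 0.0414 ± 0.0109 TPM.

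Nrp1, the neuropilin that binds Sema3a, had 38.3, 36.6 and 23.0 TPM (32.6 ± 8.41 TPM), lowest in line 72. Nrp2 had 3.12, 3.52 and 3.74 TPM, so Nrp1 held 89.9 ± 3.44% of the neuropilin level. The Sema3a level was 1.83, 3.12 and 4.37 times that of Nrp1 in lines 66, 67 and 72.

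Eph receptors summed to 185 ± 16.2 TPM, and 8 of 14 were at 1 TPM or more in every line. Epha2, a receptor tyrosine kinase bound chiefly by ephrin-A1, had 75.9, 84.2 and 70.4 TPM (76.8 ± 6.98 TPM) and carried 41.6 ± 1.09% of the family's level. Epha1 had 56.3, 48.1 and 26.7 TPM (43.7 ± 15.3 TPM), and line 72 was far below the other two. Among the class B receptors, Ephb4, the receptor of ephrin-B2, had 18.4, 17.9 and 21.1 TPM, and Ephb2 had 12.2, 17.6 and 23.7 TPM. Ephb4 and Ephb2 overlapped in their ranges. Ephb6, whose kinase domain is inactive, had 10.6, 15.5 and 10.7 TPM, and its range overlapped that of Ephb2. Epha4, Ephb3 and Epha7 had means between 3.72 and 6.56 TPM, and Epha4, the highest of these, had 3.53 ± 1.13 TPM with coding transcripts only. Epha3, Epha5, Ephb1 and Epha10 were below 1 TPM in every line, and Epha6 and Epha8 had at most 1 count.

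Ephrins summed to 121 ± 7.65 TPM. Efnb2, the transmembrane ligand that pairs with Ephb4 between arterial and venous cells, had 81.5, 73.1 and 81.8 TPM (78.8 ± 4.91 TPM). It carried 65.1 ± 0.231% of the ephrin level and was 4.13 ± 0.274 times the level of Ephb4. Efnb1 had 16.1, 16.1 and 19.2 TPM, and Efnb3 was below 1 TPM in every line. The 5 ephrins of class A, which are anchored to the membrane by a lipid, summed to only 24.7 ± 2.01 TPM, against 131 ± 21.9 TPM for the 9 EphA receptors. For class B the order was the other way round, with 96.3 ± 6.07 TPM for 3 ephrins and 53.5 ± 8.40 TPM for 5 receptors, and neither pair of sums overlapped over the 3 lines. Class A plexins, at 184 ± 7.94 TPM, were above the EphA receptors in every line over all transcripts, but over coding transcripts only the sums were 113 ± 3.68 and 120 ± 19.9 TPM and their ranges overlapped. Efna1, the usual partner of Epha2, had a mean of 2.71 ± 0.659 TPM, and Efna4 and Efna5 were the highest class A ligands at 9.40 ± 0.383 and 7.81 ± 0.509 TPM. Efna2 had a mean of 3.42 ± 0.501 TPM and Efna3 one of 1.40 ± 0.417 TPM.

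**Figure D2:**
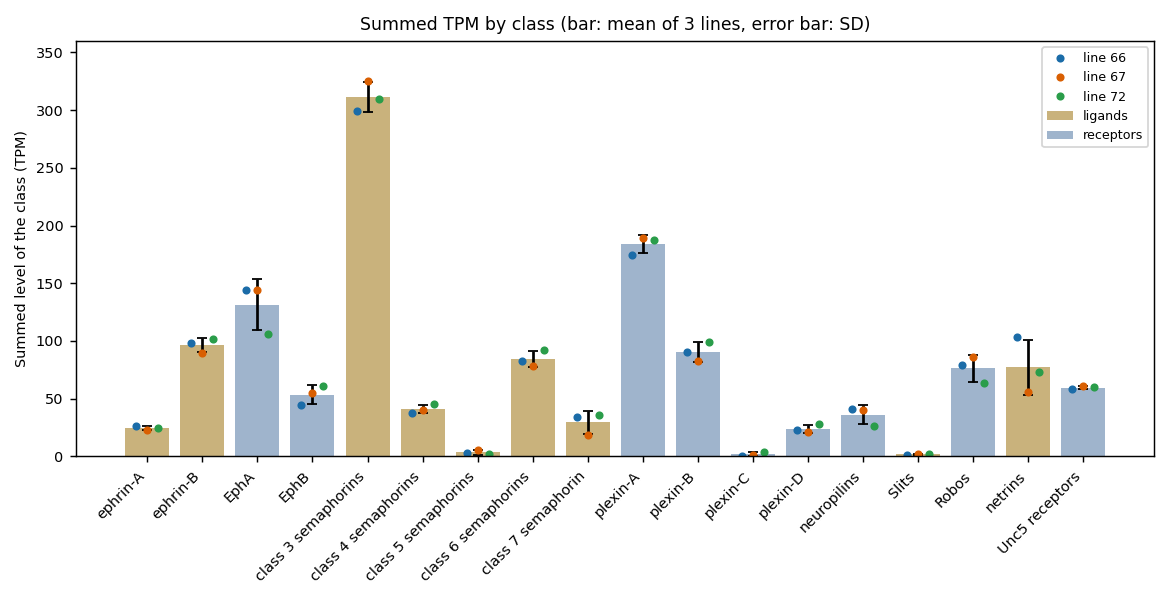
Summed level in TPM of each class of ligands and receptors, as the mean of 3 lines (bars) with SD (error bars) and 1 point for each line. Class 3 semaphorins had the highest sum (311 TPM) among ligands and, over all transcripts but not over coding transcripts only, class A plexins (184 TPM) among receptors, and Slits (1.71 TPM) lay near 0 beside Robos (76.2 TPM).

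The Slit and Robo families stood far apart. The 3 Slits, large secreted repellents, summed to 1.15, 1.89 and 2.08 TPM in lines 66, 67 and 72, and the 4 Robos to 79.0, 86.0 and 63.7 TPM. Robo1 accounted for 94.7 ± 0.254% of the receptor level, with 74.9, 81.6 and 60.1 TPM (72.2 ± 11 TPM). Slit2, the Slit with the highest level, had 0.531, 1.70 and 1.87 TPM from 135, 324 and 169 estimated counts. With coding transcripts only, Slit2 had 0.253, 0.893 and 0.744 TPM, below 1 TPM in every line. Slit1 was below 1 TPM in every line. Slit3 had 0 counts in all 3 lines, which allows up to 0.0409, 0.0448 and 0.0427 counts per 1000000 (CPM) at a limit of 3 counts in lines 66, 67 and 72. Robo4, the endothelial member, also had 0 counts in all 3 lines.

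Robo3, known for the crossing of commissural axons, had 3.37, 2.70 and 2.46 TPM. Nearly all of that came from transcripts annotated with retained introns, since coding transcripts of Robo3 made up 0.131% of the level. Its coding transcript Robo3-201 was at 0 TPM in lines 66 and 72 and at 0.0112 TPM in line 67.

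Netrins summed to 103, 55.7 and 73.0 TPM in lines 66, 67 and 72. Ntn4, a netrin of basement membranes that binds laminin, had 86.8, 41.9 and 54.0 TPM (60.9 ± 23.2 TPM) and was highest in line 66. Ntn1, the founding netrin, had 15.6, 13.2 and 18.7 TPM, and Ntn4 was 5.55, 3.16 and 2.89 times as high. Ntn3 was below 1 TPM in every line and Ntn5 had at most 1 count. Unc5b, a netrin receptor also known from vessels, had 55.2, 58.1 and 56.2 TPM (56.5 ± 1.44 TPM). It carried 94.8 ± 1.08% of the Unc5 level and differed by 1.05-fold between lines in TPM, the lowest of the 47 members with a mean of at least 1 TPM. In CPM it differed by 1.06-fold, and Efna5, at 1.03-fold, and Efna4 lay below it. Unc5a had a mean of 2.33 ± 0.570 TPM, and Unc5c and Unc5d were below 1 TPM in every line.

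Over all 9 families, genes next to each other in the order of mean level were compared in the 46 pairs whose upper gene had a mean of at least 1 TPM. The ranges of the 3 lines lay apart in 29 pairs and overlapped in 17. The first gene lay apart from the second in 8 of the 9 families, all but the Slits, for which the order of Slit2 and Slit1 turned in line 66. With coding transcripts only it lay apart in 7 families, since Sema3a and Sema3e overlapped, as did Plxna1 and Plxnb2, while Slit2 lay above Slit1.

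Between lines, 6 of the 47 members with a mean of at least 1 TPM (12.8%) were over 2-fold apart from the highest to the lowest line, where 6.64% of 11714 protein-coding genes were. A further 12 members were 1.5 to 2-fold apart and 29 under 1.5-fold. With a line left out, 2 to 4 members were over 2-fold apart (4.26 to 8.51%), beside 3.24 to 3.96% of protein-coding genes. The median member differed by 1.37-fold between lines and the median protein-coding gene by 1.22-fold. The median edgeR coefficient of variation between lines was 0.177 for these members and 0.177 for 15654 genes of all types. No line was set apart throughout, since line 66 was the highest for 12 members, line 67 for 15 and line 72 for 20.

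Plxnc1, the plexin that binds Sema7a, differed most, with 0.693, 0.962 and 3.85 TPM, a 5.56-fold difference that rested on 234, 230 and 1072 estimated counts. Line 72 alone was high, and without it Plxnc1 was not over 2-fold apart. Sema7a was 49.0, 19.1 and 9.32 times as high as Plxnc1 in lines 66, 67 and 72. Slit2 differed by 3.53-fold on the TPM scale and by 2.63-fold on the CPM scale, with line 66 the lowest on either scale. The highest line for Slit2 was line 72 in TPM and line 67 in counts.

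Sema5a, a transmembrane semaphorin with thrombospondin repeats, had 2.87, 5.97 and 1.98 TPM, a difference of 3.02-fold with line 67 the highest. Robo2 had 0.786, 1.72 and 1.12 TPM and was 2.19-fold apart, also highest in line 67. Of these 6, only Epha1 and Ntn4 averaged 10 TPM or more. Epha1 was 2.11-fold apart and Ntn4 2.07-fold, each highest in line 66.

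Some chromosomes differed between lines as a whole. For each gene averaging 10 TPM or more, the level in 1 line was divided by the mean of the remaining lines, and the log2 ratios were centred on their median. In line 66 the median of chromosome 10, which holds Ntn4, Plxnc1, Unc5b and Efna2, was 0.29. The uncentred log2 ratio of line 66 to the others was 0.86 for Ntn4, 0.26 for Efna2, -0.05 for Unc5b and -1.80 for Plxnc1. Chromosome 11, which holds Ntn1, Efnb3 and Slit3, had a median of 0.33 in that line, where the ratio of Ntn1 was -0.03. In line 72 the median of chromosome 6, which holds Epha1, was 0.16, and the uncentred log2 ratio of line 72 to the others was 0.34 for Plxnd1, 0.06 for Plxna1, -0.29 for Ephb6 and -0.97 for Epha1. Chromosome 11 in line 67 and chromosome 10 in line 72 had medians of -0.20 and -0.19. The ratio of Ntn1 in line 67 was -0.37. In line 72 the ratios were -0.25 for Ntn4, -0.01 for Unc5b, 0.09 for Efna2 and 2.22 for Plxnc1. The part of these shifts in the members' differences was not tested.

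**Figure D3:**
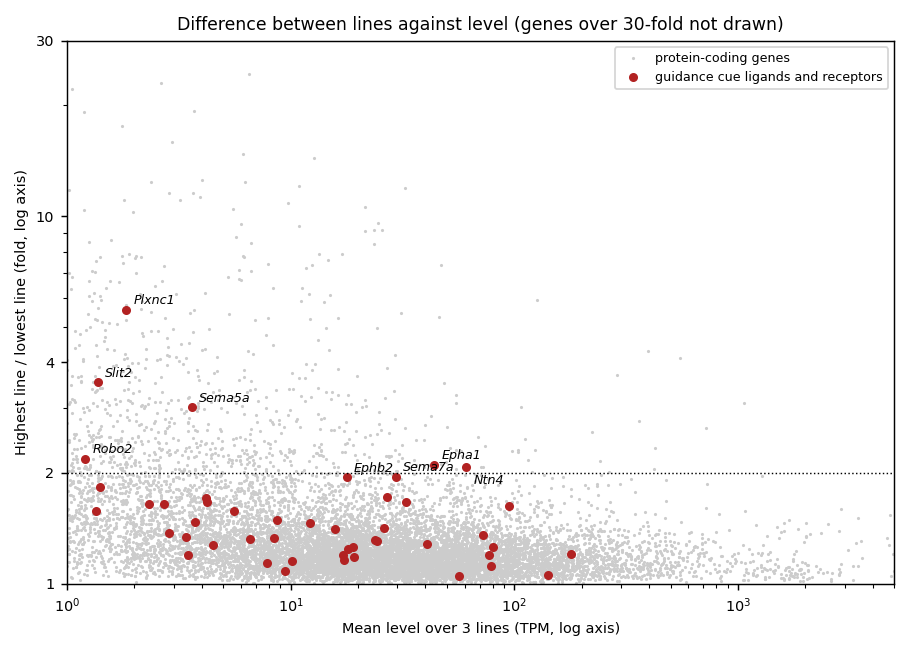
Fold from the lowest to the highest line against mean level, both on log axes, for protein-coding genes averaging 1 TPM or more (grey) and the 47 members at that level (red). The dotted line marks 2-fold, which Plxnc1, Slit2, Sema5a, Robo2, Epha1 and Ntn4 passed, with Sema7a and Ephb2 just under it at 1.95-fold each.

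The share of a gene's TPM that came from transcripts annotated as protein-coding differed between members. Over the 26 members averaging 10 TPM or more, the median share was 93.6%, and over all 8303 protein-coding genes at that level it was 91.1%. The share was below 75% for 6 of the 26 members, and 29.2% of the 8303 genes lay below it. The 6 members were Sema6c (28.6%), Plxnd1 (34.2%), Plxna3 (49.9%), Sema3e (51.8%), Plxna1 (59.0%) and Sema4c (74.3%). Semaphorins and plexins also made up 8 and 6 of the 26.

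Sema3e and Plxna1 reached a low share in different ways. For Sema3e the second transcript was the long Sema3e-202, whose kept intron is printed above, with 48.0% of the gene's TPM and 42.1% of its counts. Of its 31-base words, 749 (14.5%) occurred in no other transcript of the gene. Its reads could thus be told from those of Sema3e-201 over part of its length, but words were not compared with other genes. Plxna1-206, an intron-retaining fragment of 372 bases, held 25.6% of the Plxna1 level but only 0.793% of the counts. It had 19 words found in no other Plxna1 transcript.

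A short fragment also led for Plxnd1, where Plxnd1-204, of 442 bases, held 41.0% of TPM and 3.15% of counts. It had 5 words found in no other Plxnd1 transcript. By counts, coding transcripts made up 98.0% of Plxna1 and 93.9% of Plxnd1, against 57.6% of Sema3e. With coding transcripts only, Sema3e had 97.9, 93.0 and 87.4 TPM and Sema3a 69.0, 113 and 99.3 TPM. Sema3e was then above Sema3a in line 66 alone, whereas over all transcripts it had been above in all 3 lines. Plxna1 kept 83.3 ± 5.22 TPM.

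**Figure D4:**
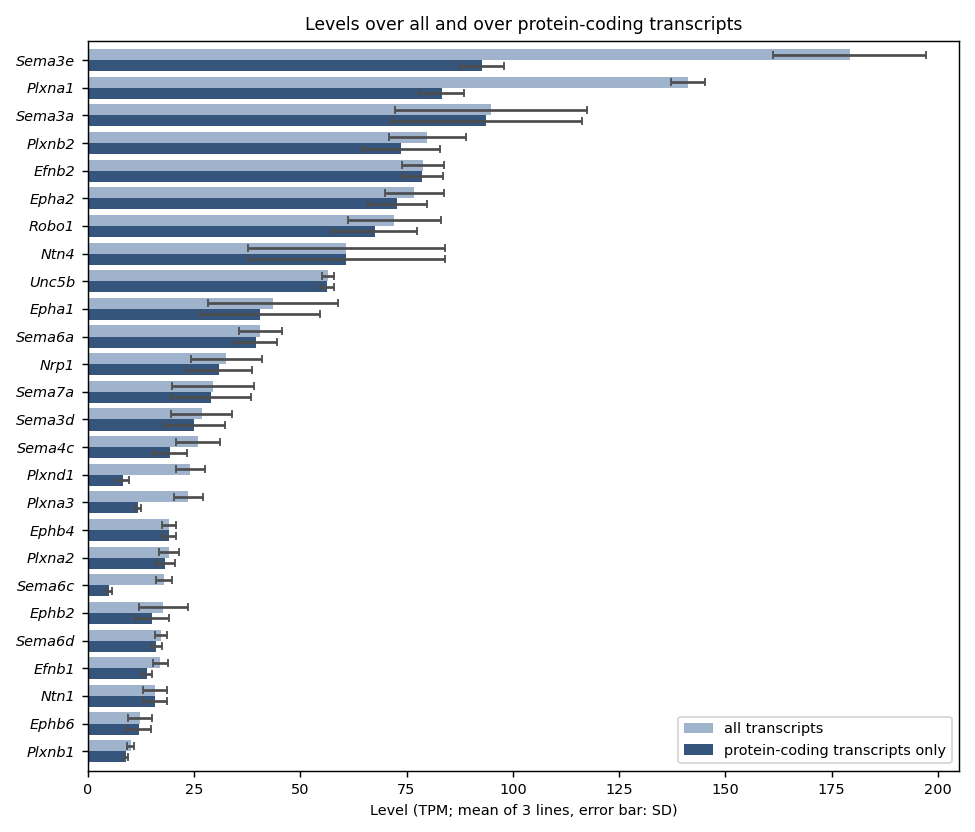
Mean level in TPM over 3 lines (error bars, SD) of the 26 members with a mean of at least 10 TPM, over all transcripts (light) and over protein-coding transcripts only (dark). The dark bar is shorter than 75% of the light one for Sema3e, Plxna1, Plxna3, Plxnd1, Sema6c and Sema4c.

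Partners and effectors, the co-receptors and signalling proteins that act with these receptors inside or beside them, were read from lists of 70 genes. Of these, 54 (77.1%) were at 1 TPM or more in every line, beside 51.9% of protein-coding genes, and 12 were below it in every line. Over 2-fold between lines were 4 of the 58 with a mean of at least 1 TPM (6.90%), near the 6.64% of protein-coding genes. All 11 Slit and Robo effectors were at 1 TPM or more in every line, led by Vasp, an actin-filament elongation factor, at 214 ± 10.2 TPM and the kinase Pak1 at 183 ± 24.1 TPM. In the Eph list 18 of 20 genes reached that level. Rasa1, a GTPase-activating protein for Ras, had 391 ± 74.5 TPM and the lipid phosphatase Inppl1 213 ± 43.1 TPM, while the exchange factor Arhgef15 was below 1 TPM in every line.

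In the plexin list 14 of 21 genes were at 1 TPM or more in every line, led by Itgb1, the beta-1 integrin that also binds Sema7a, with 349.6, 372.7 and 384.1 TPM. Dpysl3, a collapsin response mediator protein, followed at 314 ± 49.1 TPM. The neural adhesion molecules L1cam and Chl1, the integrin Itga1 and Dpysl5 were below 1 TPM in every line. Crmp1, with 4.71, 0.205 and 2.97 TPM, Dpysl4, with 3.82, 0.545 and 1.77 TPM, and Fes were over 2-fold apart between lines, and the first 2 were lowest in line 67.

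In the netrin list 11 of 18 genes reached 1 TPM in every line and 7 stayed below it throughout. Maged1, which binds Unc5 receptors, led with 303 ± 30.1 TPM, followed by Cdon, a promyogenic co-receptor that associates with neogenin, at 253 ± 28.6 TPM. Neo1, neogenin itself, had 29.1, 35.1 and 32.7 TPM. Dcc, the classical netrin receptor of axons, had 0, 0 and 1 count in lines 66, 67 and 72. Rgma, a neogenin ligand, had 1.85, 2.64 and 4.17 TPM and was over 2-fold apart between lines.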

How the data were processed

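RNA of 3 edited Dmdmdx; Pax7-nGFP myoblast lines was read as TruSeq stranded poly-A libraries. The authors deposited 1 kallisto table per line, with estimated counts and TPM per transcript, already scaled to transcript length and library by kallisto. The submitters' processing notes name bcl2fastq 2.20, fastp 0.20, kallisto 0.46.1 and GRCm39, and the annotation release is not given in the sources used here. Transcripts were matched by identifier to GENCODE M21 (120686 matched, 1112 did not, with 0.493 to 0.535% of counts) and summed per gene. Coordinates are those of GRCm38, which is not the deposited build. The 68 members and the lists of partners, effectors and markers were chosen with earlier results of these data known. Named genes were members averaging 10 TPM or more, the first of each family, those with the largest difference between lines, neighbours in the order and the 2 highest of each list. The remaining members are given by their mean or as below 1 TPM, and other genes outside this rule, such as Neo1 and Dcc, were named after their values were seen. Python 3.11.15, pandas 2.3.3, edgeR 4.0.16 and DESeq2 1.42.0 were used, the last 2 for library scaling. The coefficient of variation between lines was also estimated with edgeR. Estimated counts were rounded for these 2 tools but not for CPM, and no count model was used for a test. The fold rule was tested on simulated data. Limits at 0 counts cover counting error only.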

Additional observations from a re-analysis of the deposited data

How the results depend on the processing

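No paired analysis was possible because the 3 lines form 1 group. The count of 43 members at 1 TPM or more in every line was 31 at 5 TPM (45.6%, beside 42.8% of protein-coding genes), 49 at 0.5 TPM (72.1% and 54.8%), 49 in CPM (72.1% and 53.5%), 41 over coding transcripts (60.3% and 50.4%) and 43 to 45 when a line was left out (63.2 to 66.2%, beside 52.3 to 52.4%). The count of 6 of 47 members over 2-fold apart was 1 of 47 at 4-fold (Plxnc1), beside 1.49% of protein-coding genes. It was 2 of 26 with a mean of at least 10 TPM, beside 2.35% of protein-coding genes. Among genes detected in every line, with no other filter on low values, it was 12 of 63, beside 20.2% of protein-coding genes. With a line left out it was 2 without line 66 (4.26%, beside 3.24% of protein-coding genes), 3 without line 67 (6.38% and 3.96%) and 4 without line 72 (8.51% and 3.52%). It was 6 with edgeR or DESeq2 scaling (6.42% of protein-coding genes with either), naming the same genes. Over coding transcripts it was 5 of 44 (6.68% of protein-coding genes), where Slit2 fell under the filter.

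The median log2 level of 2.42 was 2.15 with a pseudocount of 0.1, 3.67 in CPM, 3.96 over members with a mean of at least 1 TPM and 2.23 over coding transcripts. In CPM, which do not correct for length, the family sums were 498 for Eph receptors, 314 for ephrins, 1386 for semaphorins, 1254 for plexins, 89.1 for neuropilins, 3.49 for Slits, 309.9 for Robos, 209.9 for netrins and 264 for Unc5 receptors. Over coding transcripts the sums of semaphorins (355 TPM), plexins (207 TPM) and Slits (0.734 TPM) moved by more than the SD between lines. Of 47 member levels, 33 moved by less than that SD over coding transcripts and 14 by more. With 3 lines, leaving out 1 cannot move a mean by as much as the SD, so that comparison says nothing of stability; the class sums, first pairs and Sema3e to Plxnd1 ratio over coding transcripts were added after the values were seen. The 54 partners and effectors became 48 at 5 TPM. Among chromosome shifts, 10 and 11 in line 66 and 6 in line 72 kept their values within the spread of the other chromosomes. The shifts of chromosome 11 in line 67 and chromosome 10 in line 72 were not recomputed. With 3 lines, no group was large enough for a search for outlying lines. TPM of genes with short annotated fragments depend on how kallisto divided shared reads, which could not be recomputed here.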

Other observations

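In the same 250-base windows, the E-box CAGCTG, the letters that MyoD-family factors can bind and which read the same on either strand, was present for 9 of 59 members (15.3%) and for 11.8% of the 16517 protein-coding genes with a window. It was found for 1 of the 23 members with a mean of at least 10 TPM, 2 of the 20 between 1 and 10 TPM and 6 of the 16 below 1 TPM. Among other protein-coding genes at these levels the shares were 10.96%, 12.6% and 12.2%, and among the members 4.35%, 10% and 37.5%. Ntn5, at 1 count or none in a line, was among the last. A match describes letters in this window and nothing more.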
